A study of Mus musculus with 20 samples.

Results

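The genes described here encode scaffold proteins of the c-Jun N-terminal kinase (JNK) pathway. They were chosen by name, and all 6 were found among the 23845 genes of the count and TPM tables: Mapk8ip1, Mapk8ip2, Mapk8ip3, Spag9, Sh3rf1 and Arrb2. All 6 also passed the filter on low counts, with 541 to 21751 estimated counts in any library. RNA came from mouse brain labelled strain C57/Bl6J, in 20 libraries of 7 genotype groups. There were 3 libraries each of Wild type, of the lines J1 lf/lf and J2 lf/lf, and of J17a, J27a and J27b, while J17b had 2. Per the series text the mice are controls and single-isoform knockouts kept on a normal diet, and exon usage in the new model was the question. All groups share the strain and tissue labels. Age, sex and the meaning of the codes were not given in the sources used here. Groups therefore keep the names of their labels. Nor do the labels say that replicates were different animals, and a p-value here reflects just the spread among these libraries, which may be technical.

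JNKs are stress-activated kinases at the end of a kinase cascade, in which a MAP3K activates a MAP2K and the MAP2K activates JNK. Scaffold proteins hold the kinases of a cascade together and tie it to a place in the cell. In neurons the JIP scaffolds also bind the kinesin motor and travel along axons with its cargo. Mapk8ip1 and Mapk8ip2 encode JIP1 and JIP2, related proteins that bind JNK, the MAP2K MKK7 and mixed-lineage kinases. Mapk8ip3 and Spag9 encode JIP3 and JIP4, a second, structurally separate pair of long coiled-coil proteins that act as motor adaptors. Sh3rf1 encodes POSH, a ubiquitin ligase with SH3 domains that binds active Rac and mixed-lineage kinases. Arrb2 encodes beta-arrestin 2, which stops signalling of G protein-coupled receptors and can act as a scaffold for the neuronal kinase JNK3.

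The 6 genes lie on 5 chromosomes of mm10, in GENCODE release M21. Mapk8ip1 is at 92383676 to 92401263 of chromosome 2 and Mapk8ip2 at 89453913 to 89464468 of chromosome 15. Mapk8ip3 is at 24892153 to 24936977 of chromosome 17 and Sh3rf1 at 61223872 to 61396071 of chromosome 8. Spag9 (93996091 to 94126085) and Arrb2 (70432635 to 70440828) are both on chromosome 11. Exons of Mapk8ip3 overlap those of Eme2 on the same strand over 1557 bases, 10.7% of its exon bases, and those of Mrps34 on the opposite strand over 1309 bases. No source used here says whether counting used strand, so reads in these overlaps cannot be told apart. In the other 5 genes at most 2.25% of the exon bases are shared with another gene.

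The coding sequences of the paralogs, read from the mm10 transcripts of GENCODE M21, are shown for their base composition, a property set beside the levels below. Coding G and C content was 56.2% in Mapk8ip3 and 47.9% in Spag9. It was nearly the same in Mapk8ip1 (59%) and Mapk8ip2 (59.9%). Over 3782 aligned bases, Mapk8ip3 and Spag9 were 67.1% identical, and over 1976 aligned bases Mapk8ip1 and Mapk8ip2 were 64.8% identical. Each pair is printed over the 120 aligned bases nearest the middle of the first gene's coding sequence, 5′ to 3′, with G and C in capitals.
Mapk8ip1: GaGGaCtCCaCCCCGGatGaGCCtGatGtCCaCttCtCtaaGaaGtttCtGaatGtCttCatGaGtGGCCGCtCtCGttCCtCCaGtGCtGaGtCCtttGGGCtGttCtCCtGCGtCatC
Mapk8ip2: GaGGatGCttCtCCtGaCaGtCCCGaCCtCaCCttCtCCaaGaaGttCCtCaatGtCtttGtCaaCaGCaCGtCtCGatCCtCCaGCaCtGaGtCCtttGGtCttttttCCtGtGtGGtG
Mapk8ip3: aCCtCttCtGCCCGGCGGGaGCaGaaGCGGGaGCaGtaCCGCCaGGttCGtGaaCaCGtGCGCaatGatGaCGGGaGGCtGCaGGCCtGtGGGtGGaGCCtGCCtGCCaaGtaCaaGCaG
Spag9: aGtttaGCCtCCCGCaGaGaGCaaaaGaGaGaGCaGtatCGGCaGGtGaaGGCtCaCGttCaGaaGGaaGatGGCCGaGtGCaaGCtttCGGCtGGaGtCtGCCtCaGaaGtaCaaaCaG
Counted from the start codon, these are bases 1294 to 1413 of Mapk8ip1, 1699 to 1818 of Mapk8ip2, 1930 to 2049 of Mapk8ip3 and 1807 to 1926 of Spag9. The Mapk8ip3 stretch holds 77 G or C bases and the Spag9 stretch 64, although 79 of the 120 positions are identical. The Mapk8ip1 and Mapk8ip2 stretches hold 65 and 61, so the printed Spag9 stretch is not the poorest in G and C. Over whole transcripts the G and C content was 59.6% in Mapk8ip1, 57.2% in Mapk8ip3, 55.7% in Arrb2, 55.3% in Mapk8ip2, 52.8% in Sh3rf1 and 44.1% in Spag9. Spag9 is thus the AT-rich member, and at the third position of its codons 46.4% of bases were G or C, against 64.6% in its paralog Mapk8ip3.

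Before the results, the libraries themselves need a description. Library totals ran from 21395041 to 33828755 estimated counts. Neuron markers summed to 5071 to 6023 CPM (counts scaled by library size, with TMM factors) over the 20 libraries, and the astrocyte, oligodendrocyte, microglia and endothelium markers were detected as well, so the brain label held. Markers of neighbouring tissue varied far more, from 0.376 to 3118 CPM for the anterior pituitary and from 319.9 to 1778 CPM for the choroid plexus, and their part in the results was not tested. Rn45s, the ribosomal RNA precursor, was 3066 to 6718 CPM in the libraries with title numbers 1 to 10 and 17321 to 54698 CPM in those numbered 11 to 21. All Wild type, J1 lf/lf and J2 lf/lf libraries are in the first set and all J17b, J27a and J27b libraries in the second, so a comparison of the latter lines with Wild type also compares the sets. J17a alone has libraries in both, 1 in the first and 2 in the second. Of the JNK genes, Mapk9 (JNK2) averaged 136 CPM in J2 lf/lf against 319 CPM in Wild type, and Mapk8 (JNK1) 76.9 CPM in J17b against 122 CPM, while the other lines overlapped Wild type in Mapk8. Wild type replicate 3 stood apart in composition. Across 10208 genes, its deviation from the median library correlated with transcript G and C content at r = -0.73, a description across genes, which are not independent replicates. The other 19 libraries ran from -0.56 (J17a replicate 2) to 0.31 (J2 lf/lf replicate 3). Fold changes against Wild type printed for a single gene are therefore also given without that replicate, there or in the closing sections. Shares and ranges over the pathway lists are given with all libraries only.

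The JIP genes were the higher members in these libraries, and Arrb2 and Sh3rf1 the lower. Per transcript length, in TPM, Mapk8ip1 was the highest with a median of 356 over the 20 libraries (249 to 389.6). Mapk8ip3 followed at 265 (237 to 281) and Mapk8ip2 at 239.5 (186 to 258). Spag9 came next at 180.1 (164 to 235). Arrb2 stood at 44.5 (36.5 to 53.0) and Sh3rf1, the POSH gene, at 18.5 (15.9 to 20.8). Mapk8ip1 exceeded Mapk8ip3, and Mapk8ip3 exceeded Mapk8ip2, in 20 of 20 libraries, with ratios as low as 1.05 and 1.02. Mapk8ip2 exceeded Spag9 in 19 of 20, the exception being Wild type replicate 3. The step from Spag9 to Arrb2 was the widest, with ratios from 3.38 to 5.62. Mapk8ip3 and Mapk8ip2 are the neighbours that lie closest, and their ranges overlap.

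**Figure D1:**
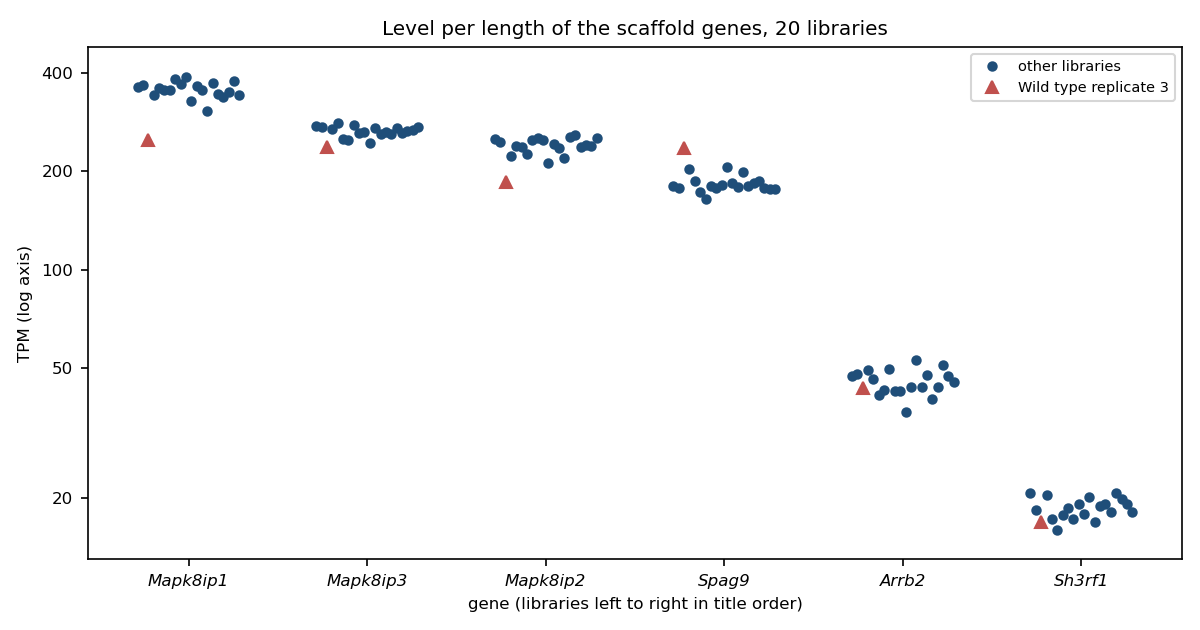
TPM of each scaffold gene in each of the 20 libraries, on a log axis, with genes ordered by mean level and libraries in title order within a gene. Wild type replicate 3 (triangles) is the lowest library for Mapk8ip1, Mapk8ip3 and Mapk8ip2 and the highest for Spag9, at 249, 237, 186 and 235 TPM.

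The summed level of the 6 genes varied little between groups, with means from 1075 to 1113 TPM. The sum of the JNK genes was low in J2 lf/lf, while its means in the other groups ran from 309 to 350.3 TPM. TPM of the 6 scaffold genes added up to 1112 in the median library (967 to 1157), of which Mapk8ip1 made up 25.7% to 33.98% and Spag9 15.6% to 24.3%. For comparison, Mapk8, Mapk9 and Mapk10, the JNK1, JNK2 and JNK3 genes, had TPM of 30.8 to 62.7, 29.5 to 200 and 109 to 138. The scaffold sum was 3.13 ± 0.61 times the JNK sum in Wild type (SD, n = 3) and 4.76 ± 0.67 times in J2 lf/lf (SD, n = 3). Without Wild type replicate 3, which was at 2.43, the Wild type ratio was 3.47 ± 0.11 (SD, n = 2) and its JNK sum 326 TPM. The J2 lf/lf libraries lay at 4.27, 4.50 and 5.52, higher than the remaining 17 libraries at 2.43 to 3.68. The ratio was chosen after its values were seen and has no test. Its parts were the JNK sum of 236 ± 28.7 TPM in J2 lf/lf against 350.3 ± 42.4 TPM in Wild type, while the scaffold sums were 1110.3 ± 52.2 and 1078 ± 95.8 TPM.

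No scaffold gene differed among the genotypes beyond the spread of the libraries. The first test asked of each gene whether its level differed anywhere among the 7 groups. With edgeR's quasi-likelihood test 0 of the 6 were called, 0 had an unadjusted p under 0.05, and DESeq2 and limma called 0 as well. Over all 16063 genes tested, 0.0872% were called and 6.71% had an unadjusted p under 0.05. The ratio of the spread between groups to that within (F) was 0.96 for Spag9, 0.62 for Mapk8ip1, Mapk8ip2 and Arrb2, 0.58 for Sh3rf1 and 0.23 for Mapk8ip3. All 6 were under 1, with adjusted p from 0.932 to 0.991. These values lean on the spread of Wild type, which replicate 3 widens. Without that replicate the same edgeR test called 0 of the 6, while 114 genes were called over all. The unadjusted p of the 6 then ran from 0.282 (Mapk8ip2) to 0.546 (Mapk8ip3), and the adjusted p from 0.681 to 0.810.

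**Figure D2:**
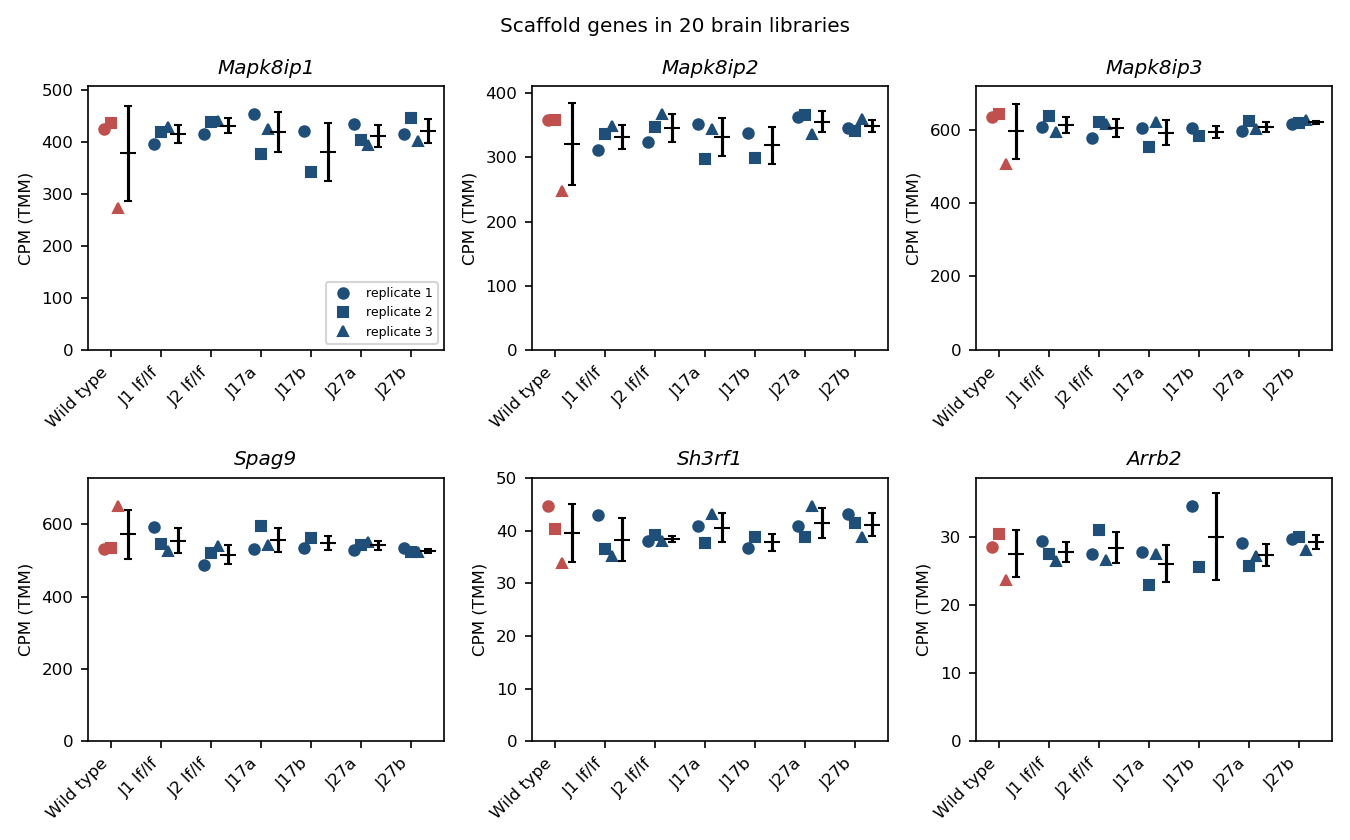
Level of each scaffold gene (CPM with TMM factors, axis from 0) in every library by genotype group, with the mean and SD of the group as a bar beside the points; Wild type is in red and the symbol gives the replicate number. The Wild type spread of Mapk8ip1 comes from 1 library at 273 CPM, below the 342 to 454 CPM of the other 19.

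Mapk8ip1, the JIP1 gene, shows what the groups looked like. The Wild type libraries held 425, 438 and 273 CPM in replicates 1, 2 and 3. J1 lf/lf held 396, 419 and 430.0 CPM and J2 lf/lf 416, 439 and 441 CPM. Wild type thus spans more than these 2 lines, through its replicate 3. J17a held 454, 378 and 426 CPM and J17b 421 and 342 CPM. J27a held 435, 404 and 395 CPM and J27b 415, 446 and 402 CPM. Replicate 2 is the lowest library in both J17 lines, and all lines overlap Wild type. Group means ran from 379 ± 91.6 CPM in Wild type to 432 ± 14.04 CPM for the J2 lf/lf libraries (both SD, n = 3).

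Spag9, the JIP4 gene, was high in Wild type replicate 3, where Mapk8ip1 was low, but did not run opposite to it in every group. It stood at 533, 536 and 652 CPM in Wild type and at 594, 546 and 525 CPM in J1 lf/lf. In J2 lf/lf it was 487, 522 and 539 CPM, rising from replicate 1 to 3 as Mapk8ip1 did. The J17a libraries held 532, 596 and 543 CPM, the J17b libraries 535 and 563 CPM. J27a was at 529.8, 543 and 552 CPM and J27b at 534, 525 and 523 CPM. The highest library was Wild type replicate 3 and the next were J17a replicate 2 and J1 lf/lf replicate 1. The lowest was J2 lf/lf replicate 1, and no line was separate from Wild type.

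Mapk8ip2 shared the low Wild type library with Mapk8ip1, and the remaining members were steadier or lower in level. Mapk8ip2, the JIP2 gene, was 358, 358 and 248 CPM in Wild type and 298 to 367 CPM in the lines, with means from 319 ± 28.3 CPM in J17b (SD, n = 2) to 355 ± 16.2 CPM in J27a (SD, n = 3). Mapk8ip3, the JIP3 gene, was the steadiest, with a coefficient of variation of 5.21% over the 20 libraries. It stood at 636.5, 643 and 508 CPM in Wild type and at 553 to 639 CPM in the lines. Sh3rf1 ranged from 33.8 to 44.8 CPM, both ends in Wild type. Arrb2, the beta-arrestin 2 gene, was 28.5, 30.4 and 23.6 CPM in Wild type. Its highest library of all was J17b replicate 1 at 34.5 CPM, while J17b replicate 2 was at 25.5 CPM.

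The 6 lines were then each compared with Wild type, which they share as control. The count of scaffold genes called was 0 of 6 in each of these 6 comparisons (edgeR, 0 with an unadjusted p under 0.05). DESeq2 and limma also called 0, with 1 member at an unadjusted p under 0.05 by DESeq2 in J2 lf/lf. The share called over all genes was 0.0125% for J1 lf/lf, 0.00623% for J2 lf/lf, 0% for J17a, 0.0249% for J17b, 0% for J27a and 0% for J27b. An unadjusted p under 0.05 was found in 5.04%, 7.94%, 4.39%, 5.85%, 4.84% and 6.94% of all genes, in that order. No scaffold gene was without overlap between a line's libraries and Wild type in any of the 6, against 8.3%, 10.4%, 6.53%, 15.4%, 8.01% and 11.9% of all genes in the same order. The median log2 fold change of the 6 was 0.03 in J1 lf/lf, 0.03 in J2 lf/lf, 0.01 in J17a, -0.01 in J17b, 0.05 in J27a and 0.07 in J27b. The medians over all genes tested lay between -0.0045 and 0.0042. Without Wild type replicate 3 the median of the 6 was below 0 in 6 of 6 lines, from -0.14 in J17b to -0.036 in J27b.

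The scaffold gene with the largest difference was Mapk8ip1 in 4 of the 6 lines listed next. Its log2 fold change was 0.13 in J1 lf/lf (95% interval -0.13 to 0.39, edgeR adjusted p = 0.954) and 0.19 in J2 lf/lf (-0.07 to 0.45, adjusted p = 0.671). It was 0.15 in J17a (-0.11 to 0.41, adjusted p = 0.993) and 0.15 in J27b (-0.11 to 0.41, adjusted p = 0.809). In J27a the largest was Mapk8ip2 at 0.15 (-0.07 to 0.36, adjusted p = 0.959), and in J17b it was Arrb2 at 0.13 (-0.14 to 0.39, adjusted p = 0.956). None of these passed the threshold, and each interval spans 0. The Arrb2 value rests on J17b replicate 1, without which it was -0.12, and it was 0.03 without Wild type replicate 3. Spag9 in J2 lf/lf came nearest by its unadjusted p (0.0514, adjusted p = 0.624), with a log2 fold change of -0.15. Without Wild type replicate 3 it was -0.05 (unadjusted p = 0.431), and Mapk8ip1 in J2 lf/lf went from 0.19 to 0.0019.

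The intervals give the precision of these comparisons. Over the 36 values of 6 genes in 6 lines they reached from -0.31 to 0.45 on the log2 scale, or 0.806-fold to 1.37-fold of Wild type, each a 95% interval for 1 gene. Mapk8ip3 had the narrowest, within -0.17 to 0.21. Of the 36 fold changes 22 were above 0, with Mapk8ip1 higher in 6 of 6 lines and Spag9 lower in 6 of 6. Without Wild type replicate 3 the directions turned: 6 of 36 were above 0, Mapk8ip1 in 1 of 6 and Spag9 in 4 of 6. The 36 intervals then reached from -0.40 to 0.28, and 0 genes were called (lowest unadjusted p 0.0507). The direction of most of these small differences thus changed with 1 control library. With the title-number set as a term in the fit, chosen after seeing the data, 0 scaffold genes were called and the intervals widened to -0.50 to 0.79, or 0.709-fold to 1.73-fold. That fit rests on J17a to tell set from line.

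**Figure D3:**
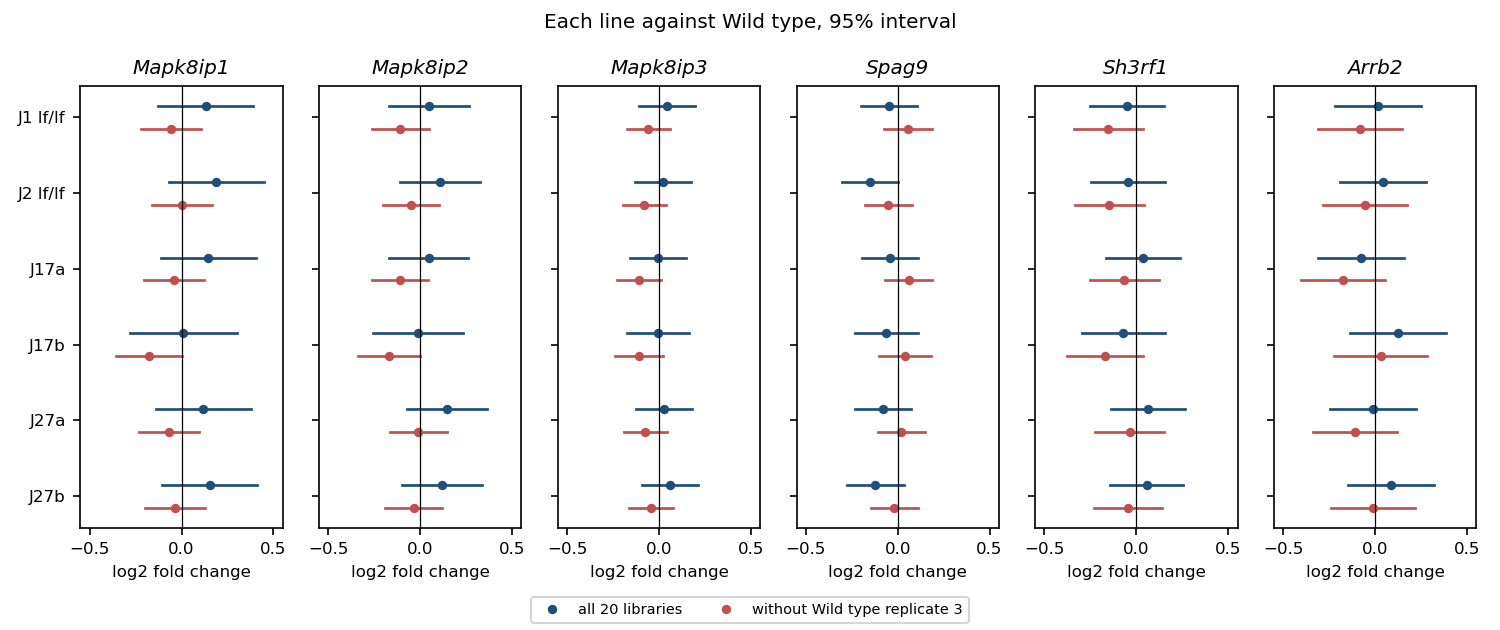
Log2 fold change of each scaffold gene in each line against Wild type with its 95% interval from edgeR, with all 20 libraries (blue) and without Wild type replicate 3 (red). With all libraries Mapk8ip1 lies right of 0 in 6 of 6 lines and Spag9 left of 0 in 6 of 6, and most points change side without that library.

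The lines whose labels end in 7a and 7b allow a comparison of means without the Wild type libraries, which still enter the estimate of spread. All J27a and J27b libraries are in the second title-number set. J17a replicate 1 is in the first set, so J17a against J17b and the interaction below also compare the sets in part. Between J17a and J17b, and between J27a and J27b, 0 of the 6 scaffold genes were called (edgeR, 0 with an unadjusted p under 0.05), where 0% and 0% of all genes were called and 5.9% and 5.79% had an unadjusted p under 0.05. DESeq2 and limma called 0, with 1 member at an unadjusted p under 0.05 by limma for J17a against J17b. No member lacked overlap, against 19.8% and 17.3% of all genes. Arrb2 had the largest difference in both, at -0.20 for J17a minus J17b (95% interval -0.47 to 0.06, edgeR adjusted p = 0.882) and -0.10 for J27a minus J27b (-0.33 to 0.14, adjusted p = 0.988). The first rests on J17b replicate 1: without it the difference was 0.039. The second was -0.057 without J27a replicate 2. Whether the 7a to 7b difference itself differed between the J17 and J27 lines was tested as an interaction. There 0 of 6 were called and 0 had an unadjusted p under 0.05, against 0.00623% and 6.7% of all genes; DESeq2 and limma called 0. The largest value there was Mapk8ip1 at 0.17 (-0.22 to 0.56, adjusted p = 0.932). It was 0.028 without J17b replicate 2 and 0.33 without J17b replicate 1. With the title-number set as a term it was 0.11, and Arrb2 for J17a minus J17b was -0.25.

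What the scaffold genes did show was a pattern from library to library, given here for pairs of members. Over the 20 libraries 11 of the 15 pairs of members correlated (Pearson, permutation test with 100000 resamples, Benjamini-Hochberg adjusted p under 0.05). The share of correlated pairs among other genes was not computed, so this count cannot be read as particular to the scaffold genes. Mapk8ip1 and Mapk8ip2 rose and fell together at r = 0.89 (permutation p = 3e-05, adjusted p = 0.00045; Spearman rho = 0.60, permutation p = 0.00544, adjusted p = 0.0408). Mapk8ip2 and Mapk8ip3 had r = 0.86 (permutation p = 9e-05, adjusted p = 0.000675; rho = 0.54, permutation p = 0.0162, adjusted p = 0.0613). Spag9 ran against them, with r = -0.80 to Mapk8ip1 (permutation p = 0.00065, adjusted p = 0.00244; rho = -0.63, permutation p = 0.00393, adjusted p = 0.0408). By Spearman's rho only 2 pairs passed after adjustment over the 15, Mapk8ip1 with Mapk8ip2 and Mapk8ip1 with Spag9. Leaving out the 2 libraries farthest from the median of Mapk8ip1, Wild type replicate 3 and J17b replicate 2, these became 0.60 and -0.57. Mapk8ip2 with Mapk8ip3 became 0.54 without Wild type replicate 3 and J17a replicate 2, and Mapk8ip3 with Spag9 went from -0.63 to 0.14, so the latter rests on those libraries.

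The same pairs were computed inside the 2 sets of 10 libraries that the Rn45s level separates. Mapk8ip1 with Mapk8ip2 had r = 0.96 among title numbers 1 to 10 and 0.73 among 11 to 21. Mapk8ip1 with Spag9 had -0.83 and -0.70. On deviations from group means these were 0.93 and -0.82, and 13 of 15 pairs passed. The permutation shuffled these deviations freely although the subtracted mean ties them within a group. Its p-values there are therefore too small, and the 13 cannot be set against the 11 above. On log2 CPM only 2 pairs passed without Wild type replicate 3 and 6 without J17a replicate 2. On log2(TPM + 1) 5 of 15 passed.

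The libraries differed in how their deviations ran with G and C content. Of the 20 libraries 4 had a correlation of deviation with G and C content under -0.3: Wild type replicate 3, J17a replicate 2, J1 lf/lf replicate 1 (-0.39) and J17b replicate 2 (-0.36). In Wild type replicate 3 the GC-richest quintile of genes (56.1% to 71.3%) had a median log2 deviation of -0.37 and the GC-poorest quintile (33.4% to 44.3%) one of 0.28. Mapk8ip1 stood at -0.62 there, Mapk8ip2 at -0.48 and Mapk8ip3 at -0.27, while Spag9, in the GC-poorest quintile, was at 0.28. Arrb2 and Sh3rf1 were at -0.23 and -0.21. In J17a replicate 2 the signs were the same, with Mapk8ip2 at -0.21 and Spag9 at 0.15. In J1 lf/lf replicate 1 they were not, since Sh3rf1 stood at 0.14 and Arrb2 at 0.089. Mapk8ip3, at 57.2% G and C, deviated less in Wild type replicate 3 than Mapk8ip2 at 55.3%. The part of this trend in the levels was not tested beyond its removal, given next. Neuron markers in Wild type replicate 3 summed to 5876 CPM, inside the range of the other libraries. Median log2 deviations of the marker lists there were -0.03 for neuron, 0.05 for astrocyte and 0.07 for endothelium. They were -0.28 for oligodendrocyte, -0.17 for microglia and -0.17 for olfactory bulb. Choroid plexus and cerebellum stood at 0.38 each, anterior pituitary at 0.33 and red blood cell at 0.27. The part of cell content in the levels was not tested.

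**Figure D4:**
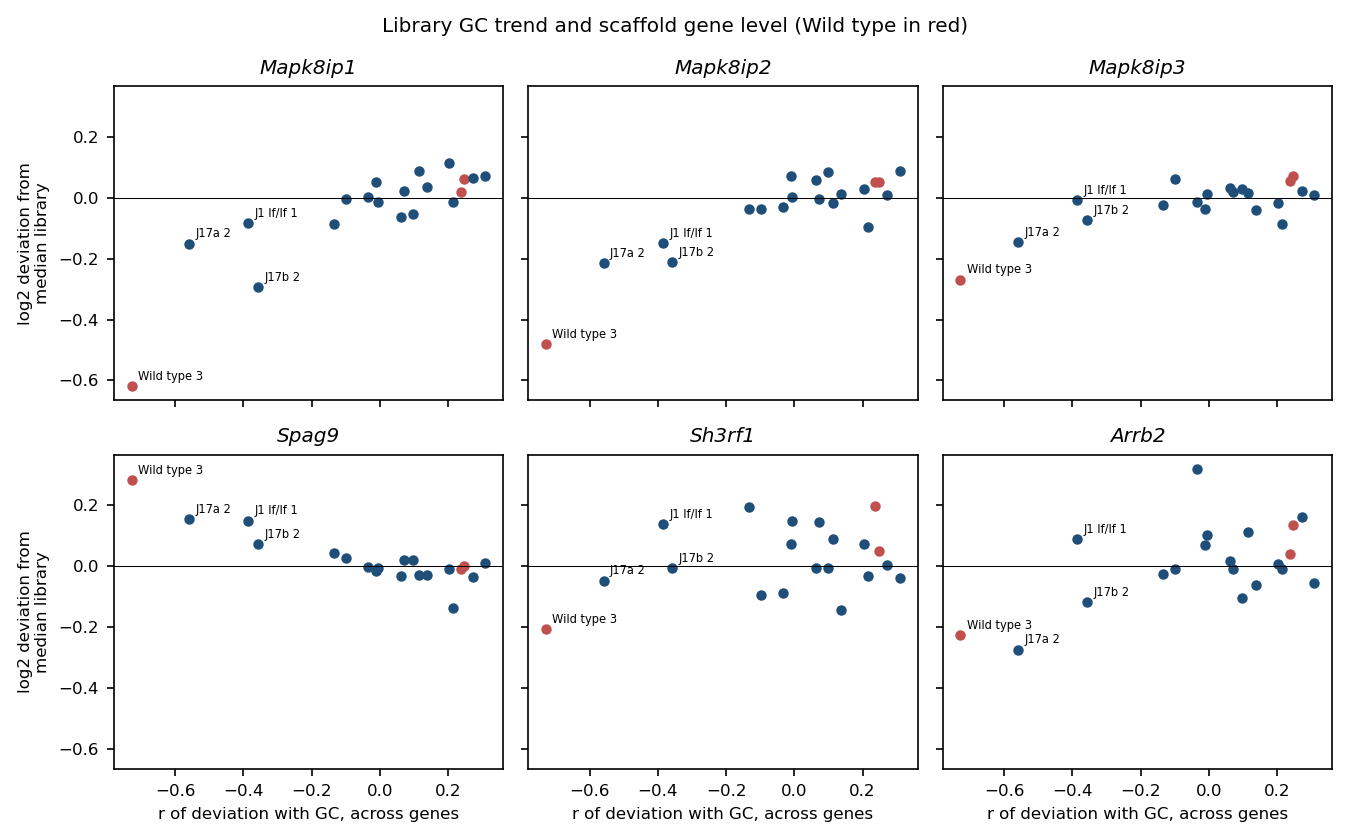
Log2 deviation of each scaffold gene from its median library (vertical) against the library's correlation, across genes, of deviation with transcript G and C content (horizontal), 1 point per library with Wild type in red. Wild type replicate 3 is at the left end at -0.73, low for Mapk8ip1 (-0.62) and high for Spag9 (0.28).

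Removing that trend from each library, a step chosen after seeing the data, changed the picture of the pairs. With the trend removed 0 of the 15 pairs passed (2 had an unadjusted permutation p under 0.05). Mapk8ip1 with Mapk8ip2 went from 0.89 to 0.51 and Mapk8ip1 with Spag9 from -0.80 to -0.07. Mapk8ip3 with its paralog Spag9 went from -0.63 to 0.61. The comparison of groups stayed at 0 scaffold genes called, and the intervals against Wild type narrowed to between -0.30 and 0.33 over the 36 values. Mapk8ip1 was still above Wild type in 6 of 6 lines (lowest unadjusted p 0.0491, adjusted p 0.725) and Spag9 below it in 6 of 6, with 17 of the 36 values above 0. Within these, Mapk8ip1 was bounded by -0.11 and 0.23 and Spag9 by -0.16 and 0.09.

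**Figure D5:**
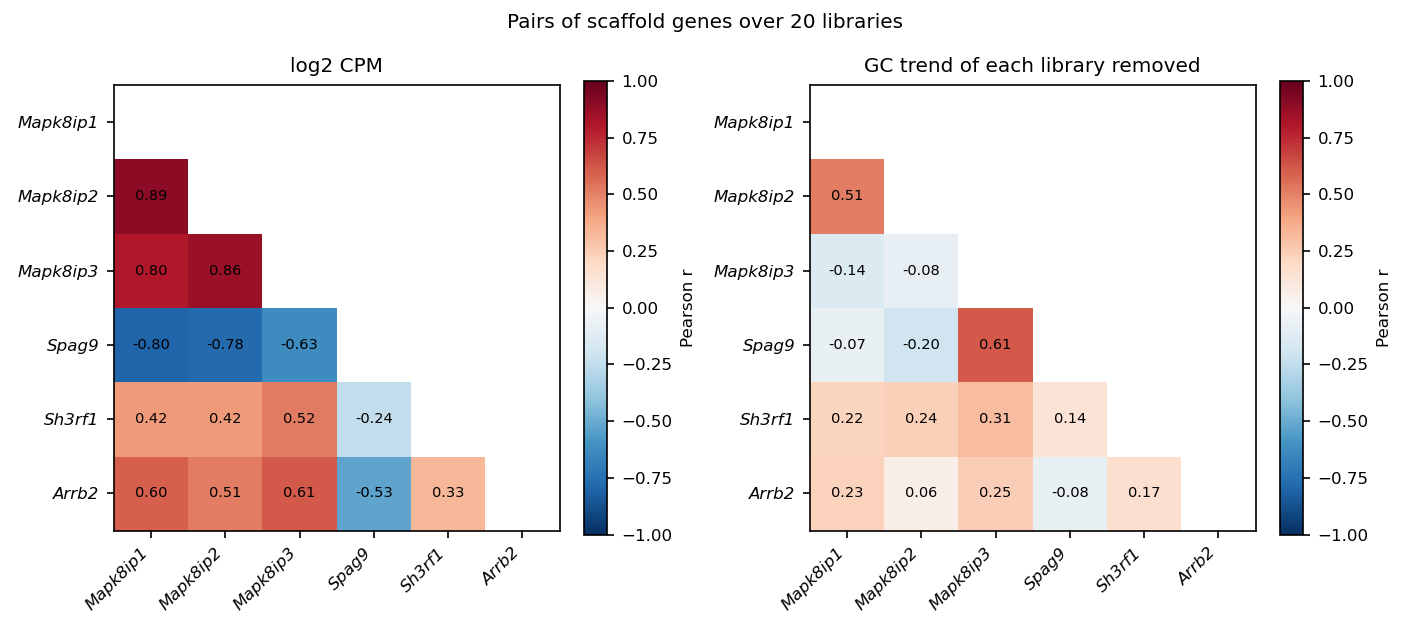
Pearson r for the 15 pairs of scaffold genes over 20 libraries, from log2 CPM (left) and after the G and C trend of each library was removed (right), with red for positive and blue for negative values. The block of Mapk8ip1, Mapk8ip2 and Mapk8ip3 at 0.80 to 0.89 and the negative row of Spag9 on the left are largely absent on the right.

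For each scaffold gene the genes most like it lay outside the scaffold set. Far more outside genes than fellow members were compared, so this outcome was likely by number alone. It cannot be read as particular to the scaffold genes. Likeness was measured by Pearson r over the 20 libraries among 10669 other genes and is given as a description, since all share library, depth and composition. Mapk8ip1 was most like Ptms (r = 0.96, rho = 0.78), with Ubald1 (0.95, 0.78) also among its 3 highest, and Mapk8ip2 ranked 163 in its list. Mapk8ip2 was most like Map3k10 (0.97, 0.81), which encodes a mixed-lineage kinase, Eef1a2 (0.97, 0.81) and Agap3 (0.97, 0.83). Mapk8ip3 was most like Bag6 (0.90, 0.80), Arpc4 (0.90, 0.72) and Lrp3 (0.90, 0.66), with Mapk8ip2 at rank 40. Spag9 was most like Ralgapa1 (0.93, 0.83), Rb1cc1 (0.92, 0.82) and Eif4g2 (0.92, 0.67), whose transcripts are AT-rich as well, at 42.6%, 39.1% and 43.2% G and C. Sh3rf1 had looser neighbours in Git1 (0.75, 0.64), Madd (0.75, 0.69) and Plcl2 (0.74, 0.68). Arrb2 was most like Psmd3 (0.82, 0.82), Aspscr1 (0.81, 0.74) and Sgsh (0.78, 0.69). The genes named here for members other than Spag9 had 50.2% (Plcl2) to 65.3% (Ptms) G and C. Without Wild type replicate 3 the r of the named genes ran from 0.66 (Git1) to 0.92 (Eef1a2).

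The proteins that the scaffolds hold or carry were looked at through 49 further genes: kinases of the cascade, other scaffolds, motors, cargo, small GTPases, JNK phosphatases and the FGF homologous factors that bind JIP2. Across the groups 0 of the 49 were called, and 7 had an unadjusted p under 0.05, or 14.3% against 6.71% of all genes. Of these 7, 2 were among the 3 JNK genes themselves. In J17b against Wild type 1 was called, Mapk8, which fell by 0.67 on the log2 scale (SE 0.10, edgeR adjusted p = 0.0128). Leaving out J17b replicate 1 (adjusted p = 0.0802) or replicate 2 (0.238) ended that call, as did limma (0.118), the replicate block (0.0598), a fit of these groups alone (1.00) and the title-number set as a term (0.290). It held with DESeq2 (3.48e-06), with the G and C trend removed (2.89e-05) and without each Wild type library (0.00312 to 0.0134), and was -0.56 without Wild type replicate 3. Leaving out any 1 library of J17b or Wild type kept the value between -0.75 and -0.56. In the other 8 comparisons 0 of the 49 were called, with 1 to 6 at an unadjusted p under 0.05. The largest of these shares were 10.2% in J1 lf/lf and 12.2% in J2 lf/lf, where 5.04% and 7.94% of all genes were at that level. The J2 lf/lf share includes Mapk9. Mapk9 in J2 lf/lf was at -1.24 on the log2 scale (SE 0.27), not called by edgeR (adjusted p = 0.586) and called by DESeq2 (adjusted p = 0.0154). Without J2 lf/lf replicate 3 edgeR called it at -0.87 (adjusted p = 3.91e-06), and without Wild type replicate 3 it was -1.14 and not called. Mapk8 for J17a minus J17b was 0.51, with an adjusted p of 0.159 in edgeR and 0.00746 in DESeq2.

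Outside the JNK genes none of the 49 was called by edgeR. The MAP2K genes Map2k4 and Map2k7 lay between -0.15 and 0.11 in the lines against Wild type. Among the 9 MAP3K genes, Map3k1 in J1 lf/lf was at 16.1 CPM and in Wild type at 11.99 CPM, 0.43 apart on the log2 scale (SE 0.14, edgeR adjusted p = 0.805; 0.43 without Wild type replicate 3). The 8 genes of kinesin and dynein motors ranged from -0.17 to 0.15 against Wild type. Flna, an actin crosslinker that also binds MAP kinases, was at 70.8 CPM in J17b and 55.9 CPM in Wild type, 0.34 apart on the log2 scale (SE 0.11, edgeR adjusted p = 0.61). That difference was 0.091 without J17b replicate 2, 0.55 without J17b replicate 1 and 0.29 without Wild type replicate 3. Fgf14, one of the FGF homologous factors, was at -0.29 for J17a minus J17b (SE 0.09, adjusted p = 0.634) and at 0.20 for J27a minus J27b (SE 0.08, adjusted p = 0.804). The test of the difference between these values gave -0.50 (SE 0.12, unadjusted p = 0.00045, adjusted p = 0.343). In bulk RNA, fewer cells of a type and less RNA per cell cannot be told apart for any of these genes.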

How the data were processed

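Poly(A)-enriched RNA was sequenced in paired reads of 150 bp on a NovaSeq6000, per the labels' protocols. The authors deposited estimated counts per gene, made with cutadapt and RSEM on mm10 per the submitters' processing notes. The TPM values the authors deposited scale each library to the same total. Versions, annotation and use of strand were not given in the sources used here.

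Of 23845 genes, 4425 were at 0 throughout, and 4.11% of the count values were not whole. Estimated counts were rounded and tested with edgeR 4.0.16 (R 4.3.3), using TMM factors (0.975 to 1.03), filterByExpr (16063 genes kept) and robust quasi-likelihood fits with a mean per group over all 20 libraries. The 10 comparisons were two-sided, adjusted by Benjamini-Hochberg over all genes within a comparison, with a threshold of 0.05. CPM values use TMM factors. Correlations used log2 CPM with a prior count of 2. Transcript G and C content is that of the longest protein-coding basic transcript in GENCODE M21, known for 95.7% of genes with a mean log2 CPM of at least 3. The G and C trend, a natural spline per library, was an alternative chosen after seeing the data, as was a term for title numbers above 10. The fits were run on simulated data with the same dispersion (spread beyond sampling noise) for every gene, no outlying library and no G and C trend. That run does not show how the fits handle these features.

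Fold changes are named for a called member, for an unadjusted p under 0.05 or for the largest difference of a comparison, and from the pathway lists for called genes or at most the 2 with the lowest p of a list. Spag9 in J2 lf/lf, Fgf14 in J27a minus J27b and the JNK levels by group were singled out after their values were seen. The 3 genes with the highest r are named as most like a member. One of those for Mapk8ip1 is not reported here. Members and lists were chosen with earlier results of these data known. Alternatives were DESeq2 1.42.0 and its size factors, no filter, limma-trend 3.58.1 on log2(TPM + 1) or on log2(TPM + 0.1), Rn45s left out, only the groups compared and a replicate block. Each library of the groups compared was also left out in turn. Replicates of a group differed by more than sampling noise, so each library counted once.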

Additional observations from a re-analysis of the deposited data

How the results depend on the processing

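The count of scaffold genes called was 0 in each of the 10 comparisons under every alternative run. These include leaving out in turn each library of the groups compared. Over 930 fold changes of the 6 genes under alternatives, 837 kept their sign and the lowest adjusted p was 0.279. Arrb2 and Sh3rf1 had at least 541 and 806 counts in a library and the other members at least 6246, yet the widest intervals against Wild type were those of Mapk8ip1 (median width 0.519).

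The number of all genes called depended on the method. For any difference among the groups the 14 genes became 231 with the DESeq2 likelihood ratio test, 3 with limma on log2(TPM + 1) or log2(TPM + 0.1), 7 with limma and no filter, and 35 with the G and C trend removed. The DESeq2 Wald test gave 17 for J1 lf/lf (2 in edgeR), 11 for J2 lf/lf (1), 1 for J17a (0), 16 for J17b (4), 5 for J27a (0), 7 for J27b (0), 9 for J17a against J17b (0), 1 for J27a against J27b (0) and 17 for the interaction (1). Limma with either pseudocount gave 1 for J1 lf/lf, 1 for J17b and 0 for the interaction. Limma with no filter gave 1 for J1 lf/lf, 7 for J17b, 2 for J27a, 3 for J17a against J17b, 1 for J27a against J27b and 2 for the interaction. With only the groups compared in the fit there were 1 for J1 lf/lf, 0 for J17b (362 at an unadjusted p under 0.05), 1 for J27a, 2 for J17a against J17b and 125 for J27a against J27b. With the G and C trend removed there were 1 for J1 lf/lf, 2 for J17b, 1 for J27b, 1 for J17a against J17b and 4 for the interaction. With the title-number set as a term there were 5 for any difference, 2 for J17b, 2 for J17a against J17b, 1 for J27a against J27b and 11 for the interaction. No filter on low counts gave 1 for J27a against J27b, and leaving out Rn45s 2 for J17b. The cause was not tested.

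Leaving out 1 library gave 2 to 114 for any difference, 1 to 15 for J1 lf/lf, 1 to 7 for J2 lf/lf, 0 to 1 for J17a, 1 to 54 for J17b, 0 to 3 for J27a, 0 to 2 for J27b, 0 to 2 for J17a against J17b and 0 to 11 for the interaction. Correlated pairs ran from 2 to 13 in place of 11, with 5 on log2(TPM + 1) and 0 with the G and C trend removed. Leaving out Wild type replicate 3 turned Mapk8ip1 to -0.056 in J1 lf/lf (up to 0.25 without another library), -0.041 in J17a (up to 0.27) and -0.035 in J27b (up to 0.27), and Mapk8ip2 to -0.0103 in J27a (up to 0.24). Without J17b replicate 1, Arrb2 turned to -0.12 in J17b against Wild type (up to 0.33) and to 0.039 in J17a minus J17b (as low as -0.40). With 1 library left in J17b, it is assumed to vary like the other groups.

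The replicate block gave 1 gene for J17b (4 without it) and 0 for the interaction (1 without it, 1015 at an unadjusted p under 0.05 with it), and adjusted p = 0.0598 for Mapk8 in J17b. Libraries share only a number: deviations of the 57 same-numbered pairs had a median r of -0.00026, and 4 of 20 libraries were closest to their own number.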
